A study of Arabidopsis thaliana with 14 samples.

Results

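The aquaporins of Arabidopsis thaliana are a family of 35 genes for membrane channels. They were found on the array by the gene locus at the start of each probe's annotation, and they make up 35 of the 28327 loci it carries: 13 plasma membrane intrinsic proteins (PIPs), 10 tonoplast intrinsic proteins (TIPs), 9 NOD26-like intrinsic proteins (NIPs) and 3 small basic intrinsic proteins (SIPs). Members were taken by locus and not by measured value, though the family was chosen with earlier results of these data known. Their names carry a hyphen here, as in protein databases (PIP2-1), where plant papers often write a semicolon (PIP2;1). Of the 35 members, 32 passed the filter on dim probes and are called measured below: all 13 PIPs, 8 TIPs, 8 NIPs and all 3 SIPs. The remaining members, the seed genes TIP3-1 (AT1G73190) and TIP3-2 (AT1G17810) and the pollen member NIP4-2 (AT5G37820), did not.

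The plants compared were quad, a quadruple mutant (bri1brl1brl3bak1) that combines the weak receptor allele bri1-301 with brl1-1, brl3-1 and bak1-3, and its wild type Col-0 (WT). The brassinosteroid receptors BRI1, BRL1 and BRL3 and the co-receptor BAK1 are altered together, so the share of each gene in a difference cannot be told apart. Each array carried quad and WT of 1 condition, in 2 replicates with the dyes exchanged. The 7 conditions were day 0, and 2, 4 or 6 days either without watering (drought) or with it (water), which gave 14 arrays and 28 channels. The labels describe whole soil-grown plants. The design text gives an age of 28 days, whereas the growth description gives 7 days on plates and 16 days on soil before treatment, and the methods speak of entire plants and of pooled rosettes. Every level is therefore a sum over tissues, in which fewer cells of a type and less RNA per cell cannot be told apart. No source says whether the 2 replicates were grown apart, so the p-values measure the spread between these samples only.

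Aquaporins are tetrameric pores, in which each subunit conducts water or a small uncharged solute along its gradient. PIPs sit in the plasma membrane, where PIP1 proteins generally reach the surface together with a PIP2 partner, and they carry much of the water that crosses cells in roots and leaves. TIPs serve the vacuole, NIPs mostly move solutes such as boric acid and arsenite, and SIPs lie in the endoplasmic reticulum. Brassinosteroids are growth hormones read by the receptors altered in quad, and withholding water is a classical way to change aquaporin transcripts.

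The quad/WT ratio of the mutated genes BRL1, BRL3 and BAK1 was below 0 (log2) on 14 of 14 arrays, with medians of -1.72, -1.20 and -2.06. BRI1, whose weak allele is a point mutation, had a median of 0.34. A list of 20 genes known to be induced by dehydration served as a check of the treatment. At day 2 WT had 13 higher and none lower in drought than in water (all genes 11.7% and 4.29%, median log2 change 0.75). Quad had none of the list higher and 15 lower (all genes 1.95% and 6.89%, median -0.93). Their summed intensity was 47053 to 60948 in quad in drought and 97442 to 120007 in quad in water, against 136932 to 138875 and 75958 to 90833 in WT in drought and in water. The libraries of quad at day 2 therefore went against their treatment labels by these genes. The list did not follow drought alone in WT either. Its WT sum was 130992 to 151340 at day 0, before drought, and 130087 to 147031 in water at day 4. WT in water at day 2 was the lowest WT group. In quad the sum was 85026 to 98971 at day 0, and 83264 to 96704 and 83870 to 88673 in drought and water at day 4. At day 6 the quad sum was 51232 to 74676 in drought and 57730 to 70624 in water. Quad at day 2 thus overlapped its day 6 sums in drought and its day 0 sums in water. At day 4 the same list had 12 higher and 2 lower in quad (all genes 3.76% and 2.35%) and 1 and 2 in WT (0.720% and 1.75%). At day 6 it had 4 and 4 in quad (9.19% and 11.9%) and 7 and 5 in WT (9.07% and 8.96%). Counts over all conditions below are followed by the count without day 2. Unless the day 2 arrays are said to be left out, that count drops only the day 2 conditions. The fit behind it keeps the day 2 arrays, which add to its estimate of the spread. Means without day 2 are from a refit without those arrays. One array also stood apart: day 4 drought replicate 1 had BRL1 at -0.45 (-1.75 on replicate 2) and BRL3 at -0.64 (-1.46 on replicate 2), 126 outlier spots against 1 to 95 on the others, and 24 spots with a background defect.

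Most measured aquaporins differed between quad and WT in some condition. Lower transcript in quad was the commoner direction: 24 of the 32 were lower in at least 1 condition by limma with Benjamini-Hochberg adjusted p under 0.05, against 28.3% of all 22810 genes tested, and 9 were higher, against 24.3%. Without the day 2 conditions 14 were lower (background 19.0%) and 7 were higher (15.5%). Altogether 27 members passed in at least 1 of 7 conditions (43.0%) and 20 in at least 1 of the other 5 (31.3%). In all, 6 members were higher in some conditions and lower in others (TIP2-3, TIP4-1, NIP1-1, NIP1-2, NIP4-1 and NIP5-1, background 9.59%), but only 1, NIP4-1, without day 2 (3.16%). When refitted without the day 2 arrays, its higher ratio in drought at day 6 (0.41) did not pass (limma, adjusted p = 0.0796). The 5 members that passed in none were PIP1-2, PIP1-3, PIP1-4, NIP7-1 and SIP1-1.

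**Figure D1:**
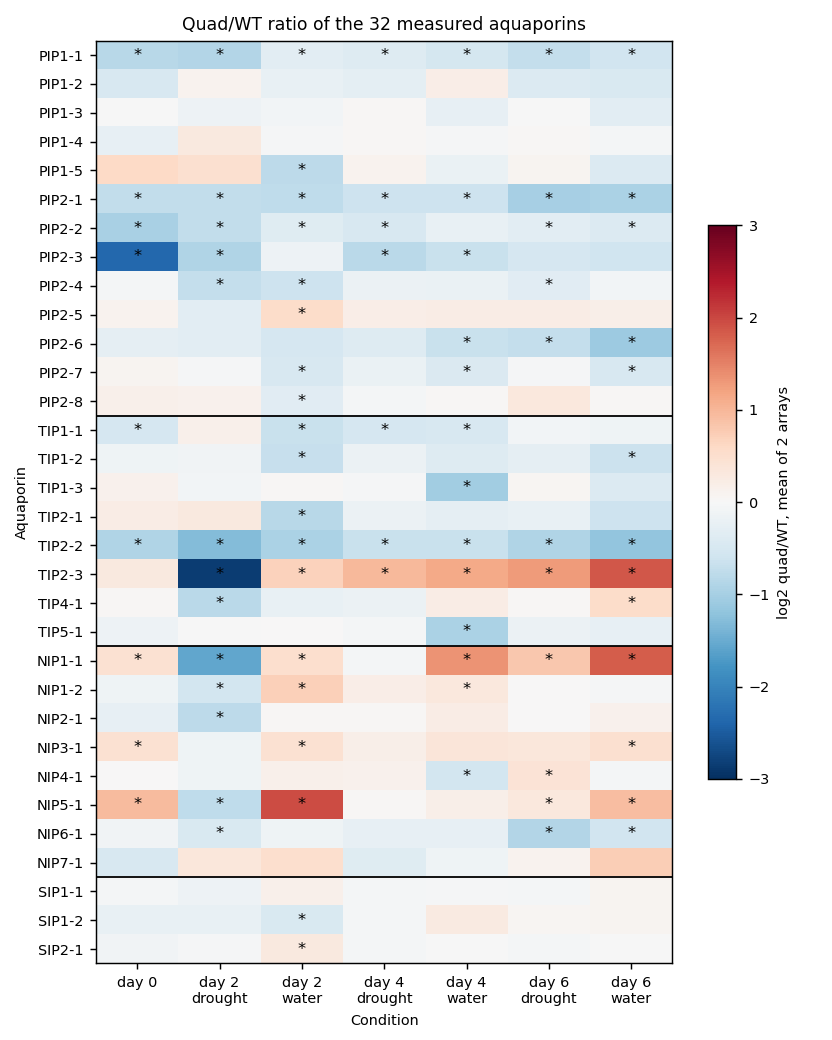
Log2 quad/WT ratio (colour, mean of 2 arrays) of the 32 measured aquaporins (vertical axis, lines between subfamilies) in the 7 conditions (horizontal axis), with * for adjusted p under 0.05. PIP1-1, PIP2-1 and TIP2-2 are blue with * in 7 of 7 columns, and TIP2-3 and NIP1-1 are blue at day 2 drought and red with * in 5 others.

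By condition, 6 members were lower and 3 higher in quad at day 0 (18.8% and 9.38% of the 32, against 6.57% and 3.52% of all genes). In drought, 13 were lower and none higher at day 2 (background 11.9% and 5.74%), 6 lower and 1 higher at day 4 (2.59% and 3.31%), and 7 lower and 4 higher at day 6 (7.08% and 4.94%). In water, 12 were lower and 7 higher at day 2 (8.06% and 13.4%), 10 lower and 3 higher at day 4 (7.99% and 5.12%), and 8 lower and 5 higher at day 6 (6.78% and 7.78%). The lower members thus exceeded the background share in each of the 7 conditions, and their share was 40.6% at day 2 drought and 37.5% at day 2 water. The median member ratio lay between -0.20 and -0.03 and the median over all genes within 0.03 of 0.

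These counts depended on the centring and on single arrays. The shares over all genes belong to the fit as reported, and none is given for the alternatives here or below. Whether calls fell alike over all genes can therefore not be read from these counts. With median centring of each array in place of loess, lower and higher calls became 1 and 0 at day 0, 5 and 0, 0 and 0, and 0 and 2 in drought at days 2, 4 and 6, and 1 and 1, 1 and 2, and 1 and 3 in water. Quantile scaling gave 5 lower and 5 higher in drought at day 6, and normexp without an offset gave 4 and 4 there and 3 lower and 1 higher in drought at day 4. Leaving out either replicate cut the 19 calls of day 2 water to 8, the 11 of day 6 drought to 7, the 7 of day 4 drought to 3 (without replicate 1) or 0 (without replicate 2), and the 13 of day 4 water to 6 or 8. The 13 calls of day 6 water became 7 without replicate 2. The 0 calls of day 4 drought are those left with the array that stood apart, and with its background defect masked there were 7 lower and 1 higher.

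The PIPs carried most of the lower calls. Over the 13 PIPs the median quad/WT ratio was -0.25 at day 0, -0.32, -0.19 and -0.31 in drought at days 2, 4 and 6, and -0.35, -0.23 and -0.40 in water. Between 4 and 7 of the 13 PIPs were lower in each condition, where 2.59% to 11.9% of all genes were, and the only higher call was PIP2-5 (AT3G54820) in water at day 2 (background 13.4%), with a ratio of 0.55, lost without either array of that condition. Averaged over conditions, 14 members of the family were lower and 5 higher (background 19.4% and 17.5%), 8 and 1 of them PIPs, and with median centring 6 were lower and 4 higher. Without the day 2 arrays 14 were lower and 4 higher.

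PIP2-1 (AT3G53420), a water channel of roots and leaves, had less transcript in quad in each of the 7 conditions. The normalised intensity over 14 arrays had a low of 9958, a median of 12164 and a high of 19453 in quad, against 17754, 21804 and 29379 in WT. The ranges overlapped across conditions, but quad was below WT on each array, and both genotypes were at their highest at day 4. The mean ratio over conditions was -0.78 (SE 0.0423, n = 14 arrays, limma, adjusted p = 8.27e-08), with -0.74 at day 0 and -0.99 and -0.96 in drought and water at day 6.

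PIP1-1 (AT3G61430), which can form mixed tetramers with PIP2 proteins, had intensities of 2724 to 6128 in quad (median 3916) and 3825 to 8017 in WT (median 5843). It was lower in quad on 14 of 14 arrays and in 7 of 7 conditions, with ratios at day 2 of -0.87 in drought and -0.32 in water, the one nearest 0 (SE 0.0866 each). Its mean ratio was -0.60 (SE 0.0327, limma, adjusted p = 8.14e-08). Genes lower in all 7 conditions were 0.153% of those tested, and in the family they were PIP1-1, PIP2-1 and TIP2-2. The same members were lower in all 5 conditions without day 2 (background 0.399%). With median centring PIP1-1 and PIP2-1 kept the adjusted p for the mean but passed in none of the single conditions. A call in drought at day 4 was lost without either array of that condition for PIP1-1 and TIP2-2, and without replicate 2 for PIP2-1, and further calls were lost without single arrays for PIP1-1 in water at day 2 and for PIP2-1 and TIP2-2 in water at day 4.

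PIP2-3 (AT2G37180), also known as RD28 for its response to desiccation, had the largest change of any PIP. At day 0 its intensity was 2355 and 1979.9 in quad, against 10725 and 11361 in WT. After day 0 the 12 later arrays gave 867 to 1743 in quad and 1273 to 2586 in WT, so the day 0 WT channels stood far above every other channel. The quad/WT ratio at day 0 was -2.35 (SE 0.190, limma, adjusted p = 6.02e-06, -2.19 and -2.52 on the 2 arrays). Later ratios were -0.89, -0.80 and -0.50 in drought at days 2, 4 and 6 and -0.15, -0.68 and -0.60 in water, of which those at day 2 drought and at day 4 passed. In 7 of 7 conditions replicate 2 gave the lower ratio, and since the replicate number is also the dye orientation, replicate and dye cannot be told apart. The calls at day 2 drought and day 4 drought were lost without replicate 2, and that at day 4 water without either replicate.

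PIP2-2 (AT2G37170), the neighbouring and closely similar gene, also had its lowest ratio at day 0. Its intensities there were 4745 and 5287 in quad, against 9655 and 9954 in WT, a ratio of -0.97 (SE 0.0910, limma, adjusted p = 2.06e-05). It was lower in 6 of 7 conditions, with -0.23 in water at day 4 as the exception, and the day 6 drought call (-0.31) was lost when any 1 of 12 of the 14 arrays was left out. The calls in drought at day 4 and in water at days 2 and 6 were lost without either array of the condition, so those at day 0 and in drought at day 2 were the ones kept on leaving out any array. Whether the probes of PIP2-2 and PIP2-3 also bind the other transcript was not tested.

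PIP2-6 (AT2G39010), a further plasma membrane water channel, was lower in quad at the later times, in water at day 4 (-0.66) and in both conditions of day 6. The day 4 call was lost with normexp without an offset, with median centring and without the filter on dim probes. In drought at day 6 PIP2-6 had 22921 and 29146 in quad, against 28987 and 62823 in WT. In water at day 6 it had 21038 and 14703 in quad, against 32901 and 43199.5 in WT. Quad was below WT on each of these day 6 arrays, with a wide gap between replicates (ratios of -0.34 and -1.11 in drought, and -0.65 and -1.55 in water). The mean ratio over the 7 conditions was -0.57 (SE 0.0749), and without replicate 2 neither day 6 call remained.

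**Figure D2:**
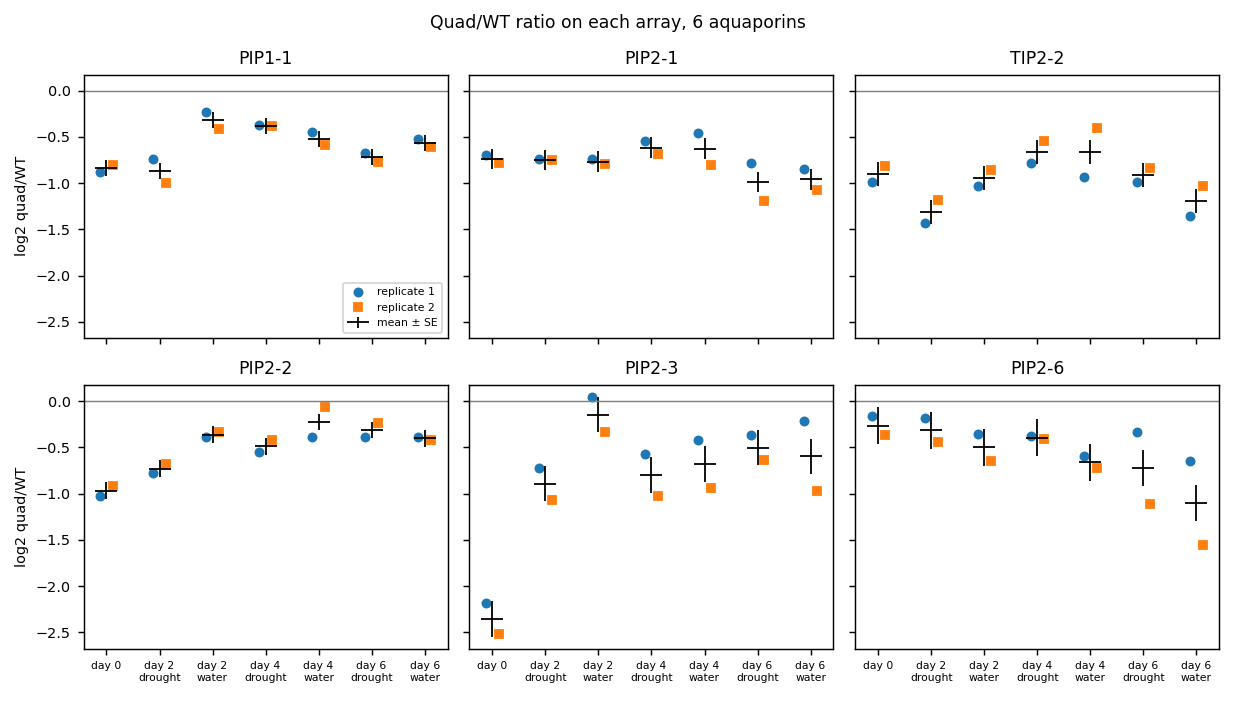
Log2 quad/WT ratio (vertical axis) on each array in the 7 conditions (horizontal axis) for 5 PIPs and TIP2-2, with replicate 1 as circles, replicate 2 as squares and the fitted mean ± SE as bars. PIP1-1, PIP2-1, PIP2-2, PIP2-6 and TIP2-2 are below 0 on 14 of 14 arrays, and PIP2-3 drops to -2.35 at day 0.

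Of the remaining PIPs, PIP2-4 (AT5G60660), a root member, was lower in both day 2 conditions (-0.71 in drought, -0.63 in water) and in drought at day 6 (-0.34). The day 6 call was lost with the scanner's processed signals, normexp without an offset, median centring and quantile scaling. PIP2-7 (AT4G35100) was lower in water at days 2, 4 and 6 (-0.47, -0.44 and -0.48). The day 2 call was lost without either array of the condition, the day 4 call under 15 of 24 alternatives and the day 6 call without replicate 2. PIP2-8 (AT2G16850) and PIP1-5 (AT4G23400) were lower in water at day 2 (-0.35 and -0.78), both calls lost without either array of that condition. In PIP1-5 the ratio ran the other way elsewhere, with 0.60 at day 0 and 0.47 in drought at day 2, neither past the test.

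PIP1-2 (AT2G45960), PIP1-3 (AT1G01620) and PIP1-4 (AT4G00430) passed in no condition, but for PIP1-4 this depended on the probe. Its brightest probe, used here, had a ratio of -0.25 at day 0, whereas the probe annotated to its first transcript had -1.71 (SE 0.103) and that of the second -0.64. The first-transcript probe also read -1.09 and -0.66 in water at days 4 and 6, against -0.03 and -0.06 with the brightest probe. Both PIP1-2 probes were below 0 at day 0 (-0.48 and -0.23), and the other PIP1-1 probes were never well above background.

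Among the TIPs, TIP2-2 (AT4G17340), a vacuolar channel best known from roots, separated the genotypes completely. Its intensity was 1431 to 3207 in the 14 quad channels (median 2218) and 3378 to 5622 in the 14 WT channels (median 4225), with no overlap even across conditions. At day 0 it was 2526 and 2708 in quad, against 5024 and 4760 in WT. In drought quad had 1431 and 1499.6 at day 2, 2593 and 2745 at day 4, and 2244 and 1952 at day 6, against 3868 and 3415.5, 4454 and 4018, and 4436 and 3485 in WT. In water quad had 1926 and 1867 at day 2, 2581 and 3207 at day 4, and 2192 and 2064 at day 6, against 3949 and 3378, 4923 and 4233, and 5622 and 4216 in WT. Quad was thus lowest in drought at day 2, where the ratio was -1.31, and the ratio was nearest 0 at day 4 (-0.66 in drought and -0.67 in water).

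The mean ratio of TIP2-2 was -0.94 (SE 0.0494, n = 14 arrays, limma, adjusted p = 6.67e-08), the largest in size of any measured TIP over the 7 conditions. Without the day 2 arrays it was -0.87, and that of TIP2-3 was larger in size (1.11). Replicate 1 gave the lower ratio in 7 of 7 conditions. With median centring the mean kept its call but 4 of the 7 conditions did not.

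TIP2-3 (AT5G47450), a close homologue that can carry ammonia and is likewise a root gene, had the opposite pattern outside day 2 drought. Its intensity at day 0 was 257.5 and 175 in quad, against 171 and 173 in WT. In drought at day 2 it was 83.6 and 102 in quad, against 574 and 785 in WT, and this was the only condition in which quad was below WT. In drought quad had 672 and 646 at day 4 and 302 and 304 at day 6, against 396 and 282, and 135 and 118 in WT. In water quad had 165 and 137 at day 2, 329 and 283 at day 4, and 572 and 483 at day 6, against 92.4 and 92.3 (not well above background), 146 and 130, and 135 and 153 in WT. The quad and WT channels of a condition overlapped in none of the 7, though at day 0 they lay close together.

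The TIP2-3 ratio was -2.86 in drought at day 2 (SE 0.15, limma, adjusted p = 2.39e-07), the largest quad/WT ratio of any member in size. It was 1.27 in drought and 1.87 in water at day 6 (adjusted p = 9.43e-06 by limma for water), 0.98 and 1.15 in drought and water at day 4, and at least 1.63-fold higher in water at day 2. Averaged over the 7 conditions it was 0.49, and 1.11 (SE 0.0710) over the 5 without day 2. The call in drought at day 4 was lost without replicate 2, and that in water at day 2 without replicate 1.

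**Figure D3:**
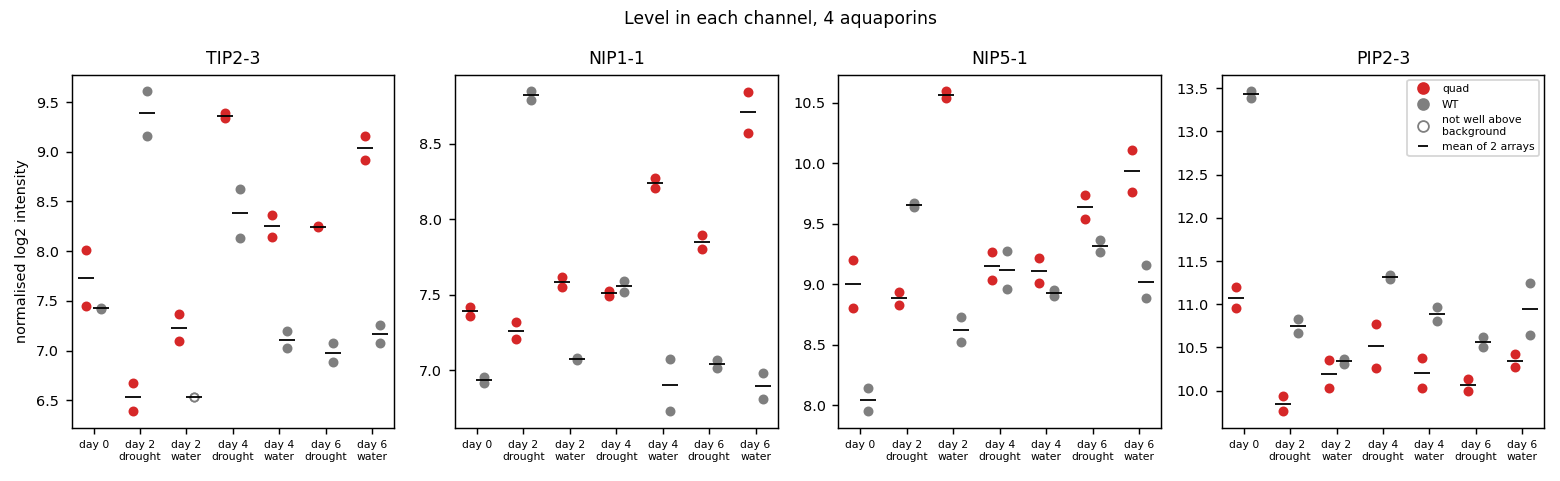
Normalised log2 intensity (vertical axis, a separate scale for each gene) of TIP2-3, NIP1-1, NIP5-1 and PIP2-3 in quad (red, left) and WT (grey, right) in the 7 conditions (horizontal axis), with open points not well above background and dashes for the mean of 2 arrays. WT stands high at day 2 drought for TIP2-3, NIP1-1 and NIP5-1, quad stands above WT at day 6 water for the same genes, and WT stands high at day 0 for PIP2-3.

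TIP1-1 (AT2G36830, gamma-TIP), an abundant tonoplast water channel, was lower in quad at day 0 (-0.51), in water at days 2 and 4 (-0.67 and -0.47) and in drought at day 4 (-0.50), but not in drought at day 2 (0.16). The calls at day 0 and day 4 were each lost without either array of the condition. TIP1-2 (AT3G26520) was lower in water at days 2 and 6 (-0.68 and -0.63) and TIP2-1 (AT3G16240, delta-TIP) in water at day 2 (-0.84). TIP4-1 (AT2G25810), a root vacuolar channel, was lower in drought at day 2 (-0.81) and higher in water at day 6 (0.55).

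The NIPs were the subfamily with the most higher calls, outside day 2 drought. Over the 8 NIPs, 3 were higher and none lower at day 0 (background 3.52% and 6.57%). In drought none was higher and 5 lower at day 2 (5.74% and 11.9%), none either way at day 4 (3.31% and 2.59%), and 3 higher and 1 lower at day 6 (4.94% and 7.08%). In water, day 2 had 4 higher and none lower (13.4% and 8.06%), day 4 had 2 and 1 (5.12% and 7.99%), and day 6 had 3 and 1 (7.78% and 6.78%). The background at day 2 leaned the same way as the NIP counts, to higher in water and to lower in drought. The median NIP ratio was -0.51 in drought and 0.48 in water at day 2, and between -0.05 and 0.31 in the other conditions.

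NIP1-1 (AT4G19030), a channel through which arsenite enters roots, had a pattern like that of TIP2-3. At day 0 it had 165 and 171 in quad, against 124 and 121 in WT. In drought quad had 148 and 159.5 at day 2, 180.4 and 184 at day 4, and 238 and 224 at day 6, against 443.5 and 463, 184 and 193, and 134 and 129.6 in WT. In water quad had 188 and 197 at day 2, 309 and 295 at day 4, and 459.7 and 381 at day 6, against 135 and 134.5, 135 and 106, and 126 and 112 in WT. The genotypes overlapped only in drought at day 4, and WT was above quad only there and in drought at day 2. The ratio was -1.56 in drought at day 2 (SE 0.0827, limma, adjusted p = 2.48e-07) and 1.82 in water at day 6 (adjusted p = 1.55e-07 by limma). It was 0.46 at day 0, 0.81 in drought at day 6 and 0.51 and 1.34 in water at days 2 and 4, and the day 0 call was lost without replicate 2. Its mean was 0.47 over 7 conditions and 0.87 (SE 0.0422) without day 2.

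NIP5-1 (AT4G10380), the boric acid channel of root uptake, had the largest mean ratio among NIPs over the 7 conditions (0.51, SE 0.0317, limma, adjusted p = 2.20e-07), but without the day 2 arrays it was 0.48, against 0.87 for NIP1-1. At day 0 its intensity was 588 and 448 in quad, against 282 and 247 in WT. In drought quad had 489.5 and 456 at day 2, 525 and 615 at day 4, and 856.5 and 744 at day 6, against 817 and 797, 498 and 618, and 662 and 617 in WT. In water quad had 1555 and 1486 at day 2, 594 and 515 at day 4, and 1109 and 867.5 at day 6, against 424 and 367, 494.5 and 479.5, and 571 and 473 in WT. Quad in water at day 2 was thus the highest of its 14 channels, while WT was highest in drought at the same day, and at day 4 the genotypes overlapped in drought.

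The NIP5-1 ratio at day 2 was -0.77 in drought and 1.95 in water (SE 0.0838 each, limma, adjusted p = 3.98e-08 for water), the highest quad/WT ratio of any member. It was 0.96 at day 0 and 0.32 and 0.92 in drought and water at day 6, and the drought call was lost without either array of that condition. At day 4 it was 0.03 in drought and 0.18 in water, neither past the test.

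NIP6-1 (AT1G80760), which distributes boric acid within shoots, was lower in quad than in WT on 14 of 14 arrays, as 1 of 6 such members of the family (background 2.06%, and 7 members against 4.30% over the 10 arrays without day 2). In drought at day 6 it had 1064 and 1411 in quad, against 1749 and 2872 in WT, so the genotypes did not overlap, and the ratio was -0.87 (SE 0.0831, limma, adjusted p = 4.61e-05). It was also lower in water at day 6 (-0.58) and in drought at day 2 (-0.47, lost without replicate 1).

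NIP3-1 (AT1G31885), another arsenite channel, was higher in quad at day 0 (0.47), in water at day 2 (at least 1.3-fold) and in water at day 6 (0.48), each call lost without either array of the condition. NIP1-2 (AT4G18910) was lower in drought at day 2 (-0.55) and higher in water at day 2 (0.70) and at day 4 (0.32), the last lost under 11 of 24 alternatives. NIP2-1 (AT2G34390), a lactic acid channel of oxygen-starved roots, was at least 1.72-fold lower in drought at day 2, where the quad channels were not well above background. NIP7-1 (AT3G06100), a boric acid channel of the anther tapetum, passed in no condition, with array ratios of -0.64 to 1.29, but in the fit without the day 2 arrays it was higher in water at day 6 (0.75, SE 0.139, limma, adjusted p = 0.00766).

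The pollen members TIP1-3 (AT4G01470), TIP5-1 (AT3G47440) and NIP4-1 (AT5G37810) were low or absent by background until day 4. In water at day 4 TIP1-3 had 69.5 and 78.7 in quad, against 164 and 143.5 in WT. TIP5-1 had 77.1 and 72.0 in quad, against 147 and 139 in WT, and NIP4-1 had 67.1 and 78.6 in quad, against 111.5 and 100.4 in WT. The quad channels were not well above background for any of these genes, so quad was at least 2.06-fold, 1.82-fold and 1.45-fold lower. In drought at the same day the 3 genes were well above background in both genotypes and did not pass, and NIP4-1 was higher in quad in drought at day 6 (0.41).

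SIPs passed only in water at day 2, where SIP1-2 (AT5G18290) was lower (-0.47) and SIP2-1 (AT3G56950) higher (0.29), and both calls were lost without either array of that condition. SIP1-1 (AT3G04090) had 5419 to 7169 in quad and 5666 to 7040 in WT over the 14 arrays and passed nowhere. In sum, 4 members, PIP2-3, TIP2-3, NIP1-1 and NIP5-1, passed both adjusted p and an absolute log2 change over 1.5 in a contrast, and they gave 6 of the 224 quad/WT pairs of member and condition, against 0.786% of such pairs over all genes. Without day 2 there were 3 pairs of 160, from PIP2-3, TIP2-3 and NIP1-1 (background 0.592%). The 6 pairs became 20 with the scanner's processed signals and 13 with normexp without an offset.

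Drought against water was compared within each genotype, on single channels and across arrays, for 31 members, PIP2-5 having 1 outlier spot. Of these, 22 passed in at least 1 of the 6 comparisons (background 39.9%) and 12 in at least 1 of the 4 without day 2 (31.5%). In quad, drought had 2 members higher and 5 lower at day 2 (background 1.95% and 6.89%), 3 and 2 at day 4 (3.76% and 2.35%), and 2 and 4 at day 6 (9.19% and 11.9%). In WT, day 2 had 8 members higher and 3 lower (11.7% and 4.29%), 2 and 1 at day 4 (0.720% and 1.75%), and 1 and 4 at day 6 (9.07% and 8.96%). At day 6 the higher share of the 31 was 6.45% in quad and 3.23% in WT, both under the background, and the lower share was 12.9% in each genotype. At days 2 and 6 drought and water shared a slide in both replicates, and at day 4 in replicate 2 only.

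These counts also moved with single arrays and settings. The 7 calls in quad at day 2 became 3 without any of the 4 day 2 arrays and 11 without either day 6 drought array, and the 6 at day 6 became 3 without either day 6 water array. The 5 calls in quad at day 4 became 3 without day 4 water replicate 1 or day 4 drought replicate 2. The 11 in WT at day 2 became 5 without day 2 drought replicate 2, 6 without day 2 drought replicate 1 and 7 without day 2 water replicate 1, and the 5 in WT at day 6 became 3 without day 6 water replicate 2. With median centring, day 2 had 3 higher and 3 lower calls in quad, and day 6 had 1 higher and 7 lower in quad and 1 higher and 2 lower in WT. The scanner's own background correction gave 3 higher and none lower in WT at day 4 (2 and none with median centring or quantile scaling) and 1 higher and 2 lower at day 6, and quantile scaling gave 3 higher and 3 lower in quad at day 2.

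At day 2, 4 members passed in both genotypes (background 4.75%), and in each the signs were opposite (4.48%): PIP1-5 (0.60 in quad and -0.65 in WT), TIP2-1 (0.57 in quad and -0.57 in WT), TIP2-3 (-0.70 in quad, and at least 7.27-fold higher in drought in WT) and NIP5-1 (-1.69 in quad and 1.03 in WT). The quad values come from the libraries that went against their labels, and with drought and water exchanged there each quad sign would turn. The quad call of PIP1-5 was lost under 12 of 23 alternatives and its WT call without any of the 4 day 2 arrays. The quad call of TIP2-3 was lost without 3 of these arrays, and both TIP2-1 calls without 2 of them, the WT call also with quantile scaling. NIP1-1 was higher in drought in WT (1.75, SE 0.103, limma, adjusted p = 5.99e-10), while the quad value of -0.33 did not pass. NIP1-2 was lower in drought in quad (-0.96), while the WT value of 0.30 did not pass. In WT at day 2 TIP4-1 (0.52), PIP2-4 (0.43), PIP2-3 (0.40), NIP2-1 (at least 1.70-fold) and NIP3-1 (at least 1.35-fold) were higher and TIP1-1 (-0.51) lower.

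Both limits were passed by 1 pair of member and day in quad (NIP5-1 at day 2) and 2 in WT (TIP2-3 and NIP1-1 at day 2), against 0.605% and 0.520% of such pairs over all genes. Other changes were measured after day 2. TIP2-3 was higher in drought at day 4 in both genotypes (1.11, SE 0.189, in quad and 1.28, SE 0.189, in WT), and lower in drought at day 6 in quad (-0.79). NIP1-1 was lower in drought in quad at days 4 and 6 (-0.73 and -0.86) and higher in WT at day 4 (0.66). NIP6-1 was higher in drought at day 6 in both genotypes (0.69, SE 0.147, in quad and 0.98, SE 0.147, in WT). NIP7-1 was lower in drought at day 6 in quad (-1.04, lost without any of the 4 day 6 arrays), PIP2-7 in WT (-0.55) and PIP2-3 in WT (-0.38). TIP1-3 and NIP4-1 were at least 2.23-fold and 1.56-fold higher in drought at day 4 in quad.

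**Figure D4:**
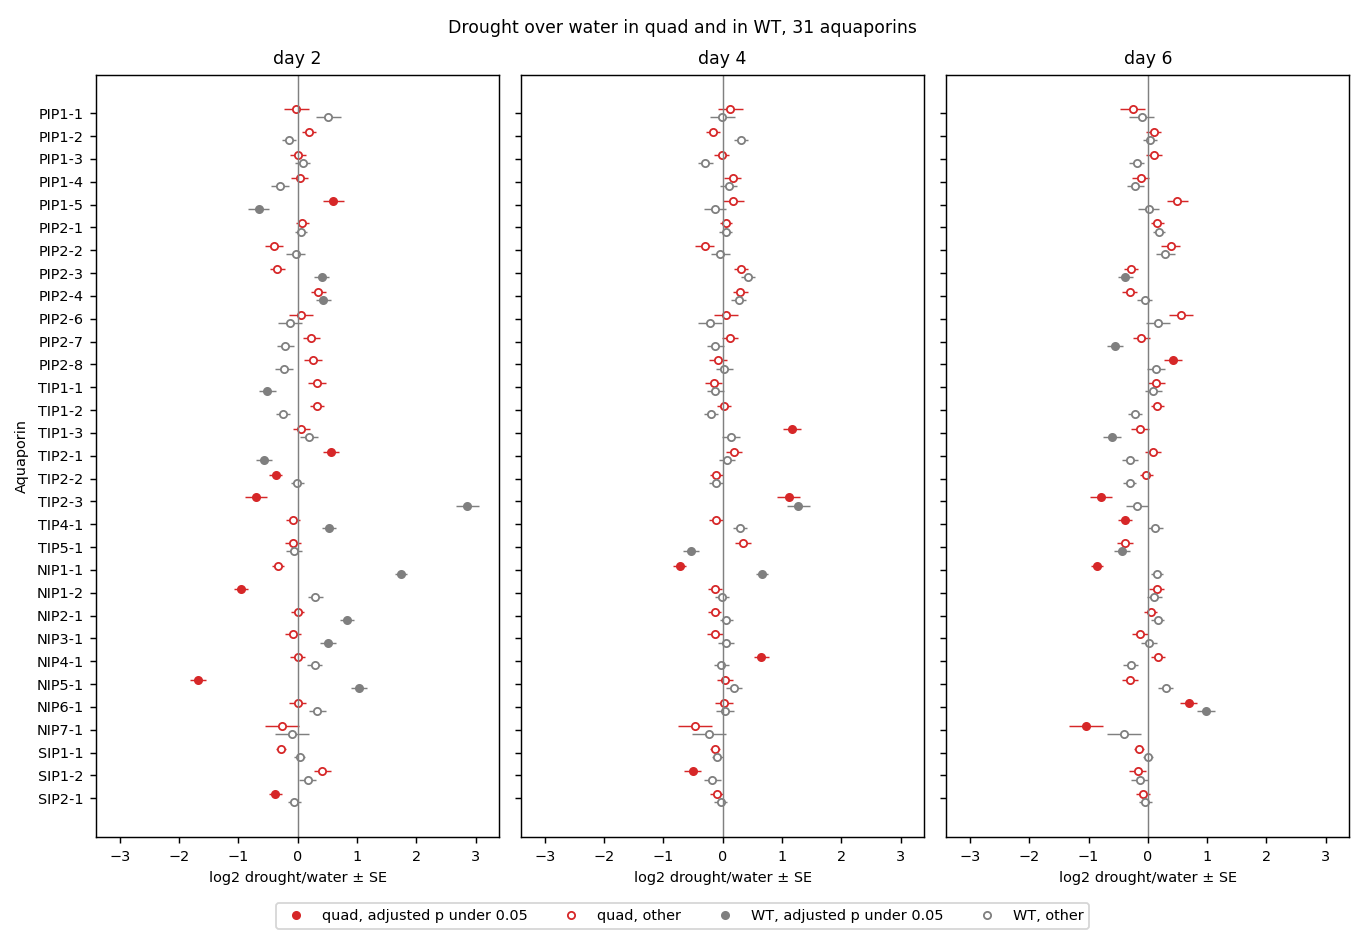
Log2 drought/water change ± SE (horizontal axis) of 31 aquaporins (vertical axis) at days 2, 4 and 6, with quad in red above WT in grey and filled points for adjusted p under 0.05. At day 2 TIP2-3, NIP1-1 and NIP5-1 lie right of 0 in WT and left of it in quad, and at day 6 NIP6-1 lies right of 0 in both.

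A further test took, for each day, the quad/WT ratio of drought minus that of water. At day 2 the difference passed for 4 members above 0 and 9 below (background 6.02% and 15.1%), at day 4 for 3 above and 1 below (2.87% and 1.27%), and at day 6 for none above and 2 below (1.39% and 3.31%). At day 2 it was -3.56 for TIP2-3 (SE 0.212), where WT in water was not well above background, -2.72 for NIP5-1 (SE 0.118) and -2.07 for NIP1-1 (SE 0.117), and these 3 were the only member values past both limits, against 1.29% of such pairs over all genes. NIP1-1 was the one member that passed on each day, with -1.39 at day 4 and -1.01 at day 6, the last lost with median centring. Median centring left none above and 4 below at day 2, 0 and 1 at day 4, and 0 and 0 at day 6, and slide as a random block gave 2 above and 3 below at day 6. Without day 2 drought replicate 1 or 2 the 13 calls of day 2 became 8, and without day 2 water replicate 2 they became 7. The 4 calls of day 4 became 2 without day 4 water replicate 1 or day 4 drought replicate 2, and the 2 of day 6 became 1 without either day 6 water array.

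Whole-plant samples mix organs, so markers of roots, flowers and leaves were set beside the members. Of 21 root genes 20 were measured (CASP5 was never well above background). Their quad/WT calls in drought were 12 lower and none higher at day 2 (median -0.44, background 11.9% and 5.74%). At day 4 there was 1 higher and none lower (3.31% and 2.59%), and at day 6 there were 8 and none (4.94% and 7.08%). In water 6, 11 and 15 were higher and none lower at days 2, 4 and 6 (medians 0.05, 0.51 and 0.59). The background of higher genes there was 13.4%, 5.12% and 7.78%. Their summed intensity in drought at day 2 was 16125 to 16161 in quad and 19104 to 22502 in WT, and in water at day 6 it was 17409 to 17548 in quad and 10199 to 12250 in WT. CASP1, of the root endodermis, had ratios of -2.37 and 1.73 there. In WT 13 of the 20 were higher in drought at day 2 and none lower (background 11.7% and 4.29%). In quad none was higher and 3 lower (1.95% and 6.89%). The root aquaporins TIP2-3, NIP1-1, TIP4-1 and NIP2-1 were low in quad in drought at day 2 with this list. PIP2-4 and NIP5-1, also described above as root channels, were lower there too. But PIP2-4 was lower as well in water at day 2 (-0.63) and in drought at day 6 (-0.34), when no root gene was lower. Its day 6 call was lost under several other settings, as given above. TIP2-2, PIP2-1 and PIP1-1 were lower in quad also at day 6, when root markers were higher. The part of root content in these values was not tested.

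Of 16 pollen and stamen genes 15 were measured (ANX1 was not). In water at day 4, 11 were lower in quad and none higher (median -1.08, background 7.99% and 5.12%), with VGD1 at -4.25 and MYB21 at -3.61. The summed intensity of the list was 1959 to 2136 in quad and 9074 to 10733 in WT. In drought at the same day it was 7312 to 7594 in quad and 8166 to 8574 in WT, and at days 0 and 2 it did not exceed 2364 in either genotype. TIP1-3, TIP5-1 and NIP4-1 were well above background in the same groups in which this list was high, and the part of flower content in their calls was not tested. Of 14 seed genes 6 were measured, and TIP3-1 and TIP3-2 were never well above background.

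Of 15 leaf photosynthesis genes 11 were lower and none higher in quad in water at day 2 (median -0.48, background 8.06% and 13.4%). LHCB2.1 had -1.20 and CA1 -0.99, and the summed intensity of the list was 205681 to 221853 in quad and 322865 to 323772 in WT. PIP1-5, TIP1-2 and TIP2-1 were among the 12 of 32 members lower in the same condition, and they were picked after their values were seen. The leaf list was below 0 at day 6 as well, with array medians of -0.38 and -0.36 in water and -0.34 and -0.25 in drought. At day 0 they were 0.05 and -0.11. The part of leaf genes in the aquaporin values was not tested.

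**Figure D5:**
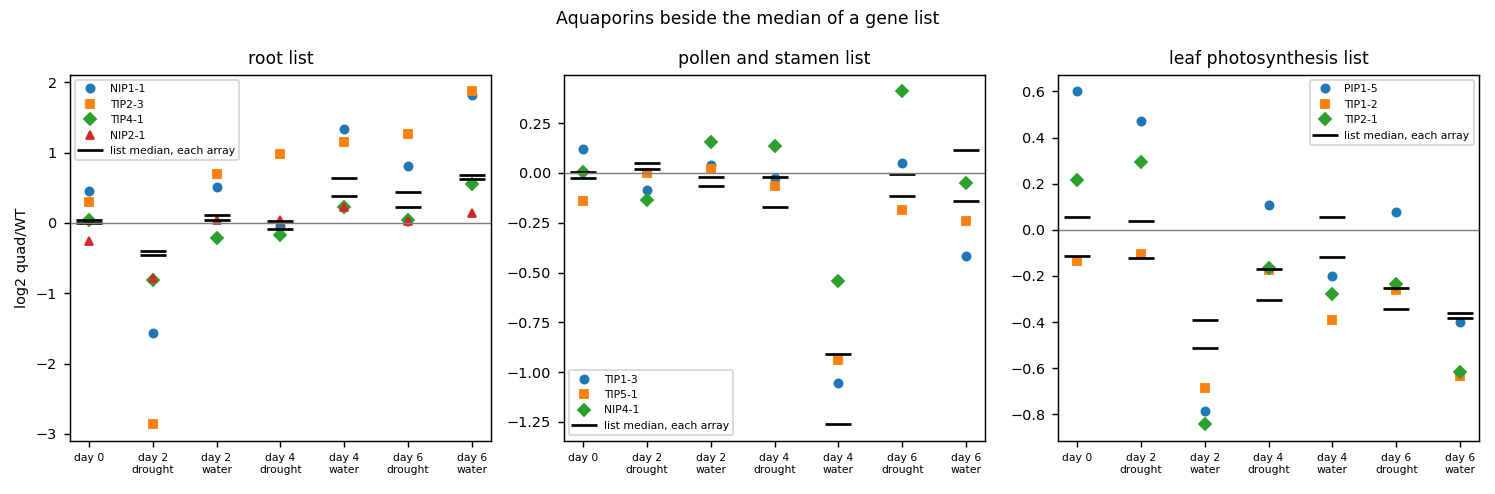
Log2 quad/WT ratio (vertical axis) in the 7 conditions (horizontal axis) of aquaporins (points, mean of 2 arrays) beside the median of a gene list on each array (bars): root, pollen and stamen, and leaf photosynthesis. The root list and the 4 root aquaporins shown are below 0 in drought at day 2. The pollen list and the 3 members shown with it are below 0 in water at day 4.

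Genes that work with aquaporins were counted from lists of partners. Of 11 genes for aquaporin regulation and trafficking, at most 3 were higher and 2 lower in quad in a condition. Over all genes 3.31% to 13.4% were higher and 2.59% to 11.9% lower. TSPO, which binds PIP2-7 and sends it to degradation, had -3.19 in water at day 4, -0.96 in drought at day 2 and 0.84 in water at day 2. Plasma membrane proton pumps set the membrane potential for solute uptake. Of 11 such genes 4 were lower and none higher in water at day 4 (background 7.99% and 5.12%). The pollen pumps AHA6 (-2.49) and AHA9 (-2.33) led them. In water at day 6, 4 were higher and none lower (7.78% and 6.78%).

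Boron exporters, 7 in the list, move out what NIP5-1 lets in. BOR2 was lower in quad in drought at day 2 (-0.47) and higher in water (0.55). It did not pass at day 0 (0.03) or in water at day 6 (0.05). BOR1 was higher in quad at day 0 (0.37) and lower at day 4 in water (-0.44) and in drought (-0.51). In water at day 6 BOR4 was higher (0.49) and BOR5 lower (-0.28). BOR2 fell in drought at day 2 in quad (-0.59) and rose in WT (0.44). BOR4 was at least 1.18-fold higher in quad in drought at day 2, where WT was not well above background. Of 14 other vacuolar transport genes at most 2 were lower in a condition (background 2.59% to 11.9%). CAX3, a calcium and proton exchanger, had -1.30 at day 0, 1.20 in water at day 2 and -1.67 in water at day 4. The part of these genes in the aquaporin values was not tested.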

How the data were processed

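RNA of quad and WT was hybridised together on 14 Agilent 2-colour arrays. The authors deposited the scanner's Feature Extraction output, with linear intensity per spot and its log10 ratio of Cy5 over Cy3, and a table of normalised ratios that the values show to be log2. The intensity columns were used here, the log10 ratio to check the dyes, and the log2 table as an alternative. In limma 3.58.1 (R 4.3.3, statmod 1.5.0) the background was corrected by normexp with offset 50, followed by loess within and Aquantile between arrays. Control and outlier spots were left out, and probes were tested only if both arrays of some condition, in quad or in WT, detected them. The brightest probe stood for a locus. Ratios were fitted with lmFit and eBayes, and single channels with lmscFit and a dye term (intraspot correlation 0.478). P-values were adjusted by the Benjamini-Hochberg method over all 22810 genes (22641 for single channels), and calls need adjusted p under 0.05. A fold given as "at least" sets the brighter group's mean against, per array, the higher of the dim signal and the lowest signal of any probe well above background. Between 57.1% and 72.8% of spots were well above background, and the number of arrays limits the precision. The fits were also run on simulated data with independent arrays and channels, which cannot show how they behave under the correlations in these data. Values for each array are given for members past both adjusted p and a log2 change of 1.5 and for the largest mean of each subfamily, and other members were named after their values were seen. Partner and marker genes are named by the largest change in a contrast, at most 2 for a list except for the boron exporters. Members and lists were chosen with earlier results of these data known. All 35 members and 27785 of 28327 loci matched a RefSeq gene table, used for names only. The alternatives were other background corrections, normalisations, filters and probe rules, the deposited table, slide and replicate terms, and leaving out arrays.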

Additional observations from a re-analysis of the deposited data

Results flagged for a closer look

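The quad/WT ratio in drought differed from that in water, by limma's test of the difference with Benjamini-Hochberg adjusted p under 0.05, for 19 pairs of member and day, 7 above 0 and 12 below. Over all genes 6.02% were above and 15.1% below at day 2, 2.87% and 1.27% at day 4, and 1.39% and 3.31% at day 6. At day 2, where the quad libraries went against their labels by dehydration genes, the log2 difference (drought minus water) was above 0 for PIP1-5 (1.26), PIP2-8 (0.49), TIP1-1 (0.83) and TIP2-1 (1.13). At the same day it was below 0 for PIP1-1 (-0.55), PIP2-5 (-0.88), TIP2-3 (-3.56), TIP4-1 (-0.59), NIP1-1 (-2.07), NIP1-2 (-1.26), NIP2-1 (-0.83), NIP3-1 (-0.58) and NIP5-1 (-2.72). WT in water was not well above background for TIP2-3, NIP2-1 and NIP3-1, nor was quad for NIP2-1, so these differences are fitted values and no exact sizes.

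At day 4 the pollen members TIP1-3 (1.03), TIP5-1 (0.87) and NIP4-1 (0.68) were above 0 and NIP1-1 (-1.39) below. Quad in water was not well above background for the pollen members, so their differences too are fitted values and no exact sizes, and the NIP4-1 call was lost under 12 of 24 alternatives. At day 6 NIP1-1 (-1.01) and NIP5-1 (-0.60) were below 0.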

How the results depend on the processing

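Of 160 pairs of member and contrast past adjusted p, none reversed, 46 were kept under every alternative and 58 under all that left no single array out. Median centring in place of loess cost the most calls: 91 of 123 quad/WT pairs and 6 of 37 drought/water pairs, while it moved the median of all genes by up to 0.12. Under it the calls numbered 1 at day 0 (9 as reported), 5 and 2 in drought and water at day 2 (13 and 19), 0 and 3 at day 4 (7 and 13), 2 and 4 at day 6 (11 and 13) and 10 for the mean (19), 4, 1 and 0 for drought minus water at days 2, 4 and 6 (13, 4 and 2), and 3 in WT at day 6 (5). With the scanner's processed signals and with normexp offset 0, the pairs past both limits became 20 and 13 for quad/WT (6), 9 and 7 for drought minus water (3), 7 and 3 for drought/water in quad (1) and 5 and 4 in WT (2). WT at day 6 had 3 and 2 calls under them, day 4 drought had 4 with offset 0, and drought minus water at day 6 had 1 with scanner signals. Slide as a random block gave 21 and 5 calls for drought minus water at days 2 and 6. Slide as a fixed term, chosen after seeing the data, gave 12 and 10 calls in quad at days 2 and 6 (7 and 6). A refit without the day 2 arrays, also chosen after seeing the data, gave 8 calls in water at day 4 and 6 in drought at day 6.

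Replicate numbers were not used as pairs, since the replicate differences of some conditions hardly correlated (0.00522 to 0.634 over pairs of conditions). The positive correlations leave a component shared by replicate, which cannot be told apart from the dye orientation. The replicate block gave 20 calls for drought minus water at day 2 (13).

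Leaving out each array gave 6 to 10 calls at day 0, 12 to 14 and 8 to 20 in drought and water at day 2, 0 to 7 and 6 to 14 at day 4, 7 to 12 and 7 to 15 at day 6, and 18 to 20 for the mean. Drought minus water gave 7 to 15, 2 to 4 and 1 to 3 calls at days 2, 4 and 6. Drought/water gave 3 to 11, 3 to 5 and 3 to 7 in quad, and 5 to 13, 2 to 3 and 3 to 5 in WT. With 2 arrays a condition, leaving out 1 assumes that the lone array varies like the others.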
